A study of Mus musculus with 9 samples.

Results

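The Kennedy pathway of phosphatidylcholine, with the transporters that bring choline into the cell and the enzymes that exchange acyl chains on the finished lipid, was followed in BV2 cells through 10 genes. They were Slc44a1, Slc44a2, Chka, Chkb, Phospho1, Pcyt1a, Chpt1, Lpcat1, Lpcat2 and Lpcat3, picked by symbol out of the 55335 genes of the expression table, and all 10 were found. BV2 is an immortalised mouse microglial line, and all cells carried the genotype label WT. The 9 RNA-seq libraries fell into 3 groups of 3. The hypoxia with ethanolamine group was kept for 24 h at 1% oxygen with 100 µM ethanolamine, the hypoxia group was kept for 24 h at 1% oxygen, and the control group was labelled 0 h. The series concerns ethanolamine in diabetic retinopathy. The labels give 0 h and no oxygen value for control, and 24 h at 1% oxygen for hypoxic cells. Effects of oxygen and of time between them thus cannot be told apart. A treatment tag of the control cells names adipogenic differentiation, in conflict with title and design, and was left aside. A single cell line was used. The labels do not state separate cultures for the libraries of a group, and each p-value therefore reflects the spread between these samples alone, which may be technical.

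Phosphatidylcholine is the most abundant phospholipid of most mammalian membranes. Choline enters through carriers such as the choline transporter-like proteins, is phosphorylated by choline kinase, is activated to CDP-choline by the rate-limiting cytidylyl transferase, and is joined to diacylglycerol by a phosphotransferase. Lysophosphatidylcholine acyltransferases then replace acyl chains, the remodelling known as the Lands cycle. In microglia and other macrophages this lipid is also a source of arachidonate and of platelet-activating factor. Ethanolamine feeds a parallel branch that makes phosphatidylethanolamine, which a methyltransferase can turn into phosphatidylcholine.

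The promoters of the genes with the largest called changes are given here because hypoxia-inducible factors bind a short core, ACGTG or GCGTG. The windows are the 250 bases before the start of Phospho1 and Lpcat2, the members that rose in hypoxia, and of Chka, which fell with ethanolamine in hypoxia relative to control. Sequences and starts are those of RefSeq on GRCm38.p6, and capitals mark matches to the core on either strand.
Phospho1, chr11:95824250-95824499, plus strand: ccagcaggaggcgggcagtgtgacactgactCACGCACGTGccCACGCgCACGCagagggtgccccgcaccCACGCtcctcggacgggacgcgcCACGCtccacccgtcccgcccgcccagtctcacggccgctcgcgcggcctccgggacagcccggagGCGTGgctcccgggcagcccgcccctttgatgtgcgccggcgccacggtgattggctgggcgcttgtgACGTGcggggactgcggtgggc
Lpcat2, chr8:92855083-92855332, plus strand: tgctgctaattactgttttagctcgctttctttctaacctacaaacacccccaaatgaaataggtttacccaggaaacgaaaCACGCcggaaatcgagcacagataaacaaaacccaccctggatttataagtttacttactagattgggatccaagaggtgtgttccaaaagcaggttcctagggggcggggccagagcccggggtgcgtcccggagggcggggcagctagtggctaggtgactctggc
Chka, chr19:3851523-3851772, plus strand: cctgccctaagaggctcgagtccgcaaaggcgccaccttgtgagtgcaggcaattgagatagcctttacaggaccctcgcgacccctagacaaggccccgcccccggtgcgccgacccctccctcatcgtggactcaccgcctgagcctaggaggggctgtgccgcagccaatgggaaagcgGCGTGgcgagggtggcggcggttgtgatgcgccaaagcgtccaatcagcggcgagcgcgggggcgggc
The Phospho1 window held 9 core matches, with the palindrome CACGTG counted on both strands, and 0.0426% of 32851 mouse promoter windows of that length held at least 9. Lpcat2 and Chka held 1 match each, which is common, since 38.6% of windows held at least 1. Lpcat1, and Slc44a2 in 1 of its windows, held 2, and 16.7% of windows held at least 2. RefSeq windows were found for all 10 genes (14 windows), and 6 genes had a core match in at least 1 window. Slc44a1, Chkb, Chpt1 and Lpcat3 had none of these letters in their windows. The sterol regulatory motif TCACNCCAC, searched on both strands, occurred in 1.05% of all windows and, among these genes, in Pcyt1a windows alone. The windows were not matched for base composition, and both forms of the core hold the letters CG. The part of base composition in the Phospho1 count was not tested. These matches describe letters and do not show binding.

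Values were FPKM, fragment counts scaled by transcript length and library total, which allow levels of different genes to be set side by side. Read totals are unknown. FPKM summed to between 324121 and 370322 per library, with 11556 to 11924 genes at 1 FPKM or more. As a check of the hypoxia labels, 6 hypoxia-inducible genes had a summed level of 714 to 765 FPKM with ethanolamine in hypoxia, 732 to 791 FPKM in hypoxia and 66.4 to 74.0 FPKM in control. Of 10 microglial and macrophage markers, 8 averaged at least 1 FPKM with ethanolamine in hypoxia, 8 in hypoxia and 7 in control. Their summed level was 1248 to 1301 FPKM with ethanolamine in hypoxia, 1194 to 1341 FPKM in hypoxia and 1011 to 1268 FPKM in control. Cd68 alone made up 594 to 778 FPKM of that sum, which hides markers that differed between groups. Csf1r lay at 64.6 to 68.2 FPKM with ethanolamine in hypoxia, 68.0 to 72.7 FPKM in hypoxia and 17.1 to 19.3 FPKM in control, and Cx3cr1 at 2.58 to 2.81 FPKM with ethanolamine in hypoxia, 2.34 to 2.61 FPKM in hypoxia and 0.143 to 0.253 FPKM in control. Itgam had 22.1, 27.8 and 52.9 FPKM with ethanolamine in hypoxia, 20.0, 65.2 and 33.6 FPKM in hypoxia, and 20.5 to 22.6 FPKM in control. Aif1 and P2ry12, which mark microglia in tissue, stayed below 1 FPKM. No marker of neurons, astrocytes, oligodendrocytes or endothelium averaged 1 FPKM, and of 7 adipocyte markers only Fabp4 did, while Adipoq, Lep, Plin1 and Cfd were listed at 0 throughout. The adipocyte list summed to 19.2 to 20.7 FPKM with ethanolamine in hypoxia, 24.5 to 27.0 FPKM in hypoxia and 16.0 to 22.0 FPKM in control. The 3 endothelial markers summed to 0.910 to 1.16 FPKM with ethanolamine in hypoxia, 1.20 to 1.30 FPKM in hypoxia and 0.260 to 0.528 FPKM in control. The 3 oligodendrocyte markers summed to 0.507 to 0.774 FPKM with ethanolamine in hypoxia, 0.627 to 0.996 FPKM in hypoxia and 0.280 to 0.469 FPKM in control. The part of these markers in the results below was not tested. Ribosomal RNA-like transcripts took 8.25% to 13.0% of the summed FPKM with ethanolamine in hypoxia, 8.96% to 13.2% in hypoxia and 3.50% to 8.82% in control, and the calls for Phospho1 and Lpcat2 below were also made after rescaling without these and mitochondrial transcripts.

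Of the 10 genes, 9 averaged at least 1 FPKM over the libraries and were tested, and Chpt1 did not. Changes are differences of log2(FPKM + 0.5), which understates the change of low genes, tested with limma and adjusted by the Benjamini-Hochberg method over all 11802 tested genes at 0.05. In bulk RNA, fewer cells expressing a gene and less RNA per cell cannot be told apart.

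**Figure D1:**
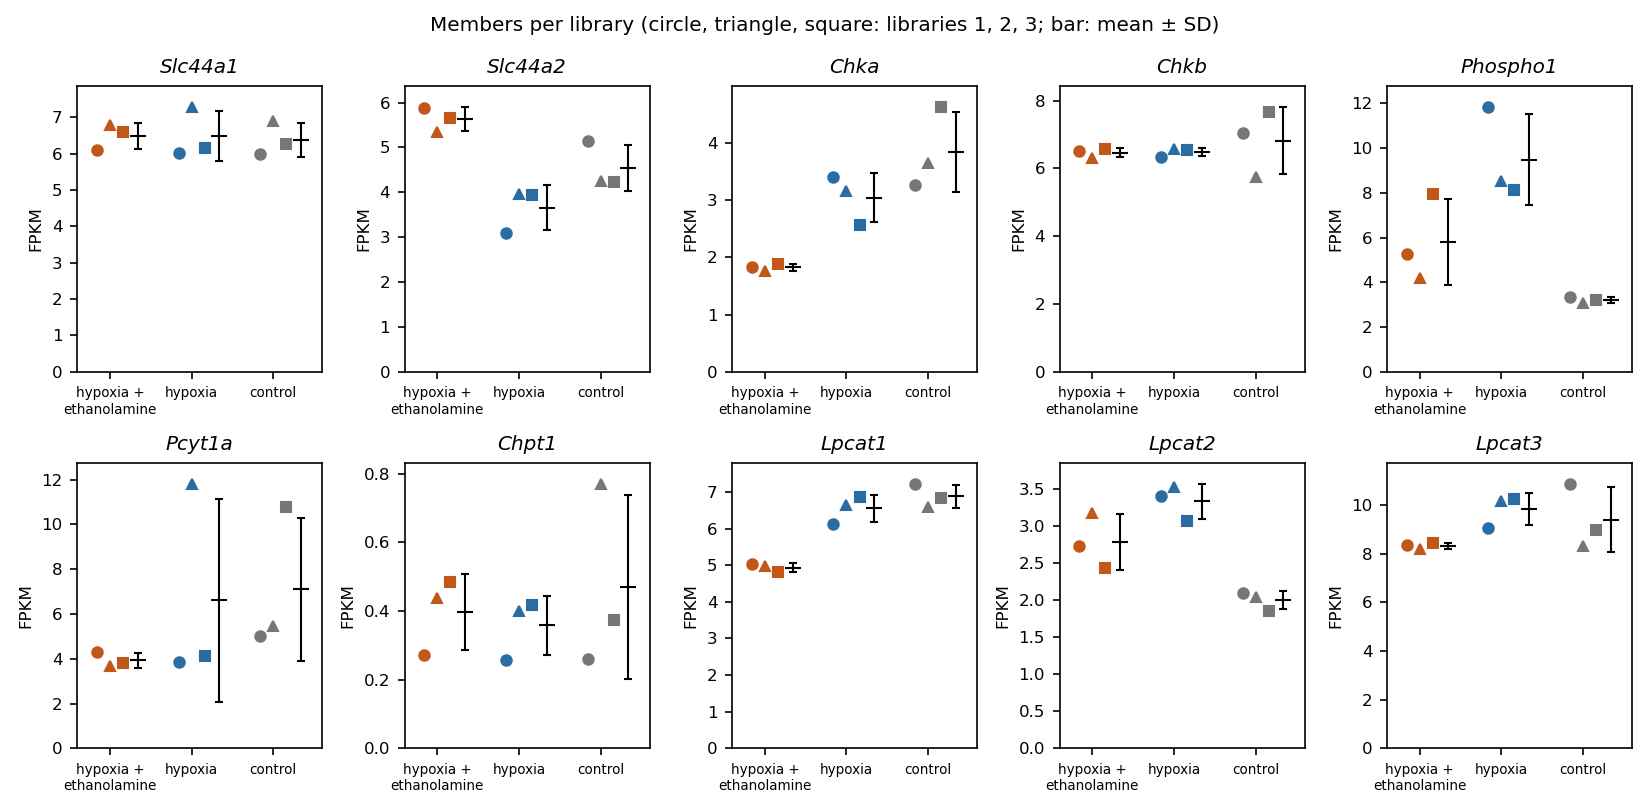
Level of each of the 10 genes in FPKM (vertical axes, each from 0) in the 3 libraries of hypoxia with ethanolamine, hypoxia and control, with mean ± SD bars. Phospho1 and Lpcat2 lie above control in all hypoxia libraries, Chka and Lpcat1 are lowest with ethanolamine, and Pcyt1a has 1 high library each in hypoxia and control.

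Lpcat3 had the highest mean of the 10 in every group, and Chpt1 the lowest. With ethanolamine in hypoxia, Lpcat3 (8.33 ± 0.125 FPKM) stood clear of the next genes, Slc44a1, Chkb and Phospho1, whose ranges overlapped one after another. In hypoxia, Lpcat3 (9.82 ± 0.665 FPKM) and Phospho1 (9.49 ± 2.04 FPKM) overlapped at the top, followed without a gap by Pcyt1a, Lpcat1, Chkb and Slc44a1. In control, Lpcat3 (9.39 ± 1.33 FPKM) overlapped with Pcyt1a, and Phospho1 (3.21 ± 0.144 FPKM) was eighth. The place of Phospho1 thus differed most between groups by this ranking, at rank 4 with ethanolamine, rank 2 in hypoxia and rank 8 in control. All values here and below are means ± SD of 3 libraries unless given per library.

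Choline uptake was represented by Slc44a1 and Slc44a2, which encode the choline transporter-like proteins CTL1 and CTL2. Slc44a1 (chromosome 4, 53440413 to 53622478, plus strand) had 6.09, 6.78 and 6.60 FPKM with ethanolamine in hypoxia, 6.01, 7.28 and 6.16 FPKM in hypoxia, and 5.98, 6.89 and 6.26 FPKM in control. The 3 groups overlapped throughout. Its log2 change was 0.01 with ethanolamine against hypoxia (95% interval -0.20 to 0.21, limma adjusted p = 0.983) and 0.02 for hypoxia against control (limma adjusted p = 0.869).

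Slc44a2 (chromosome 9, 21320698 to 21355028, plus strand) had 5.89, 5.35 and 5.65 FPKM with ethanolamine in hypoxia, 3.09, 3.96 and 3.94 FPKM in hypoxia, and 5.13, 4.26 and 4.22 FPKM in control. The libraries with ethanolamine were all above those of both other groups, and the hypoxia libraries were all below control. Against hypoxia the log2 change with ethanolamine was 0.56 (SE 0.11, 95% interval 0.32 to 0.81), which missed the threshold (limma adjusted p = 0.0745). Against control, Slc44a2 rose with ethanolamine in hypoxia by a log2 change of 0.29 (SE 0.11, limma adjusted p = 0.0482). That call was kept in 7 of 18 alternative settings (adjusted p between 0.00893 and 0.142), and it was lost when any 1 library other than the first of control or the first of hypoxia was left out. Hypoxia against control gave -0.28 (limma adjusted p = 0.0529). This stayed uncalled in 17 of 18 alternative settings (limma adjusted p up to 0.174), and without hypoxia library 2 the adjusted p was 0.0475. The summed FPKM of both transporters was 12.1 ± 0.135 with ethanolamine in hypoxia, 10.1 ± 1.07 in hypoxia and 10.9 ± 0.381 in control.

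Choline kinase phosphorylates choline in the cytosol and is encoded by Chka and Chkb. Chka (ENSMUSG00000024843, chromosome 19, 3851773 to 3894369, plus strand) had 1.83, 1.77 and 1.88 FPKM with ethanolamine in hypoxia, 3.40, 3.16 and 2.57 FPKM in hypoxia, and 3.26, 3.64 and 4.62 FPKM in control. The libraries with ethanolamine lay below all others and close together, while hypoxia and control overlapped. Relative to control, Chka fell with ethanolamine in hypoxia by 0.89 on the log2 scale (SE 0.13, limma adjusted p = 0.000382), and this held in every alternative setting that tested it (adjusted p between 0.000338 and 0.00208). Relative to hypoxia alone the log2 change was -0.60 (SE 0.13, 95% interval -0.90 to -0.30) and missed the threshold (limma adjusted p = 0.0976). Hypoxia against control gave -0.29 (limma adjusted p = 0.0895). It stayed uncalled in 17 of 18 alternative settings (limma adjusted p up to 0.304), and without control library 1 the adjusted p was 0.0408.

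Chkb (chromosome 15, 89426360 to 89429908, minus strand) was the more abundant kinase. It had 6.51, 6.31 and 6.57 FPKM with ethanolamine in hypoxia, 6.34, 6.56 and 6.55 FPKM in hypoxia, and 7.05, 5.74 and 7.67 FPKM in control, and all groups overlapped. Its log2 change was -0.0040 with ethanolamine against hypoxia (95% interval -0.22 to 0.21, limma adjusted p = 0.988) and -0.06 for hypoxia against control (limma adjusted p = 0.616). Chka made up 22.0% ± 0.22 of the summed kinase FPKM with ethanolamine in hypoxia, 31.9% ± 3.43 in hypoxia and 36.0% ± 3.85 in control. The Chka to Chkb ratio was 0.281, 0.280 and 0.287 with ethanolamine in hypoxia, below the 0.536, 0.482 and 0.391 of hypoxia and the 0.462, 0.634 and 0.603 of control. Of the exonic bases of Chkb, 50.7% are shared with Gm44502 on the same strand and 10.5% with C730034F03Rik on the opposite strand. Gm44502 lay at 0.203 to 1.75 FPKM, with means of 0.268 ± 0.0716 FPKM with ethanolamine in hypoxia, 0.600 ± 0.419 FPKM in hypoxia and 1.27 ± 0.419 FPKM in control. The part of shared reads in the Chkb level and in the ratio was not tested.

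Phospho1 encodes a phosphatase that releases choline from phosphocholine and is best known from mineralising cartilage and bone. Phospho1 (ENSMUSG00000050860, chromosome 11, 95824499 to 95832140, plus strand) had 5.29, 4.18 and 7.95 FPKM with ethanolamine in hypoxia, 11.8, 8.53 and 8.12 FPKM in hypoxia, and 3.36, 3.07 and 3.21 FPKM in control. The 3 groups did not overlap, with hypoxia highest and control lowest, although the highest library with ethanolamine lay close to the lowest of hypoxia. Phospho1 rose in hypoxia relative to control by a log2 change of 1.41 (SE 0.21, 95% interval 0.94 to 1.88, limma adjusted p = 0.000328). It also rose with ethanolamine in hypoxia relative to control, by 0.72 (SE 0.21, limma adjusted p = 0.0151). Both calls held in every alternative setting, with adjusted p between 7.81e-05 and 0.0017 for hypoxia and between 0.00476 and 0.0444 with ethanolamine. Ethanolamine in hypoxia against hypoxia gave -0.69 (SE 0.21, 95% interval -1.16 to -0.22), which was not called (limma adjusted p = 0.183).

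The Phospho1 locus is crowded, and whether counting used strand is not stated. In the GENCODE M21 annotation 89.6% of its exonic bases are shared with a transcript of Zfp652 on the same strand and 84.2% with Abi3 on the opposite strand. Zfp652 lay between 3.03 and 3.72 FPKM in all libraries. Abi3 had 4.24, 2.11 and 5.39 FPKM with ethanolamine in hypoxia, 1.37, 2.63 and 3.82 FPKM in hypoxia, and 4.69, 3.68 and 4.54 FPKM in control. Its lowest group mean was in hypoxia, but all groups overlapped. The part of shared reads in the Phospho1 level was not tested. The profiles most like that of Phospho1 over the 9 libraries, by root mean square difference of centred log2 values, were those of Pappa2 (0.22), Fam102b (0.23) and Ptpn14 (0.23).

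Pcyt1a encodes the cytidylyl transferase that sets the rate of the pathway. Pcyt1a (chromosome 16, 32430921 to 32475070, plus strand) had 4.31, 3.67 and 3.81 FPKM with ethanolamine in hypoxia, 3.85, 11.8 and 4.14 FPKM in hypoxia, and 5.03, 5.47 and 10.8 FPKM in control. Hypoxia library 2 and control library 3 stood far above the others of their groups, and the coefficient of variation was 8.6% with ethanolamine, 68.4% in hypoxia and 45.1% in control. Pcyt1a was called in none of the comparisons, at a log2 change of -0.51 with ethanolamine against hypoxia (95% interval -1.41 to 0.40, limma adjusted p = 0.603), -0.70 with ethanolamine against control (limma adjusted p = 0.161) and -0.19 for hypoxia against control (limma adjusted p = 0.697).

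The Pcyt1a values turned on those 2 libraries. Without hypoxia library 2 the log2 change with ethanolamine against hypoxia was -0.02, that for hypoxia against control was -0.68, and that with ethanolamine against control stayed at -0.70 with a limma adjusted p of 0.0378. Without control library 3, hypoxia against control gave 0.13 and ethanolamine against control -0.38. Counted after these values were seen, 20 of the 11802 tested genes (0.169%) were at least 1.5 times higher in both of these libraries than in each of their group mates. The nearest profiles were those of Gnpda1 (root mean square difference 0.24), Cdipt, which encodes the phosphatidylinositol synthase (0.29), and Larp4 (0.32). Gnpda1 had 12.8 FPKM in hypoxia library 2 and 12.7 FPKM in control library 3, against 5.70 to 6.91 FPKM in the other 7 libraries. The other nearest profiles shared this only in part. Cdipt had 10.1, 22.4 and 13.3 FPKM in hypoxia and 17.5, 11.7 and 21.9 FPKM in control. Larp4 had 9.59, 18.9 and 9.89 FPKM in hypoxia but was level in control, at 16.4, 15.8 and 16.1 FPKM.

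Chpt1 encodes the cholinephosphotransferase that ends the pathway. Chpt1 (chromosome 10, 88452745 to 88504073, minus strand) had 0.271, 0.437 and 0.484 FPKM with ethanolamine in hypoxia, 0.258, 0.399 and 0.417 FPKM in hypoxia, and 0.261, 0.771 and 0.375 FPKM in control. The groups overlapped. Without the filter on low values Chpt1 was not called, at a limma adjusted p of 0.966 with ethanolamine against hypoxia, 0.849 with ethanolamine against control and 0.665 for hypoxia against control. Cept1, whose product carries out the same step with choline or ethanolamine, was far more abundant, at 7.43 ± 0.281 FPKM with ethanolamine in hypoxia, 6.49 ± 0.261 FPKM in hypoxia and 6.65 ± 1.11 FPKM in control. Its log2 change was 0.18 with ethanolamine against hypoxia (limma adjusted p = 0.486) and -0.02 for hypoxia against control (limma adjusted p = 0.886).

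Acyl chain exchange was represented by Lpcat1, Lpcat2 and Lpcat3. LPCAT1 prefers saturated acyl chains, LPCAT2 also makes platelet-activating factor and is known from activated macrophages, and LPCAT3 inserts polyunsaturated chains. Lpcat1 (chromosome 13, 73467197 to 73516422, plus strand) had 5.03, 4.98 and 4.81 FPKM with ethanolamine in hypoxia, 6.14, 6.65 and 6.87 FPKM in hypoxia, and 7.23, 6.59 and 6.83 FPKM in control. The libraries with ethanolamine lay below all others, and hypoxia and control overlapped. Lpcat1 fell with ethanolamine in hypoxia relative to control by 0.44 on the log2 scale (SE 0.07, limma adjusted p = 0.000459), and the call held in every alternative setting. Against hypoxia the log2 change was -0.37 (SE 0.07, 95% interval -0.53 to -0.22) and missed the threshold (limma adjusted p = 0.0595). It stayed uncalled in 18 of 19 alternative settings (limma adjusted p up to 0.181). The exception was median-of-ratios scaling, with an adjusted p of 0.0483. Hypoxia against control gave -0.07 (95% interval -0.22 to 0.09, limma adjusted p = 0.424).

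Lpcat2 (ENSMUSG00000033192, chromosome 8, 92855339 to 92919279, plus strand) had 2.73, 3.18 and 2.43 FPKM with ethanolamine in hypoxia, 3.39, 3.53 and 3.06 FPKM in hypoxia, and 2.10, 2.04 and 1.86 FPKM in control. All hypoxic libraries were above control, and the groups with and without ethanolamine overlapped. Lpcat2 rose in hypoxia relative to control by a log2 change of 0.62 (SE 0.10, 95% interval 0.38 to 0.85, limma adjusted p = 0.000798). It rose with ethanolamine in hypoxia relative to control by 0.39 (SE 0.10, limma adjusted p = 0.0109). Both calls held in every alternative setting that tested the gene. Ethanolamine in hypoxia against hypoxia gave -0.23 (95% interval -0.47 to 0.01, limma adjusted p = 0.363).

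Lpcat3 (chromosome 6, 124663027 to 124704418, plus strand) had 8.36, 8.19 and 8.44 FPKM with ethanolamine in hypoxia, 9.05, 10.2 and 10.2 FPKM in hypoxia, and 10.9, 8.30 and 8.99 FPKM in control. The libraries with ethanolamine were below those of hypoxia and overlapped with control. No comparison was called, at a log2 change of -0.22 with ethanolamine against hypoxia (limma adjusted p = 0.334), -0.16 with ethanolamine against control (limma adjusted p = 0.199) and 0.07 for hypoxia against control (limma adjusted p = 0.569). Emg1 on the opposite strand shares 10.2% of the exonic bases of Lpcat3. Emg1 lay at 7.89 to 10.2 FPKM with ethanolamine in hypoxia, 8.76 to 9.63 FPKM in hypoxia and 14.4 to 16.1 FPKM in control, and its part in the Lpcat3 level was not tested.

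Lpcat2 made up more of the summed FPKM of Lpcat1, Lpcat2 and Lpcat3 in every hypoxic library than in any control library. The Lpcat1 to Lpcat2 ratio was 1.84, 1.57 and 1.98 with ethanolamine in hypoxia, 1.81, 1.88 and 2.24 in hypoxia, and 3.44, 3.23 and 3.68 in control. All 6 hypoxic libraries were below the 3 controls. Lpcat2 took 17.3% ± 1.99 of that sum with ethanolamine in hypoxia, 16.9% ± 1.58 in hypoxia and 11.0% ± 0.92 in control. Other acyltransferase genes, such as Lpcat4 and Mboat1, lie outside this sum. Lpcat4 averaged 12.5 ± 0.980 FPKM with ethanolamine in hypoxia, 12.6 ± 0.592 FPKM in hypoxia and 17.3 ± 0.860 FPKM in control, above Lpcat1, Lpcat2 and Lpcat3. For hypoxia against control Lpcat4 fell, at a log2 change of -0.44 (limma adjusted p = 0.000648). The Lpcat3 to Lpcat1 ratio was 1.69 ± 0.0594 with ethanolamine in hypoxia, 1.50 ± 0.0294 in hypoxia and 1.36 ± 0.128 in control. Ratios are descriptions and were not tested.

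**Figure D2:**
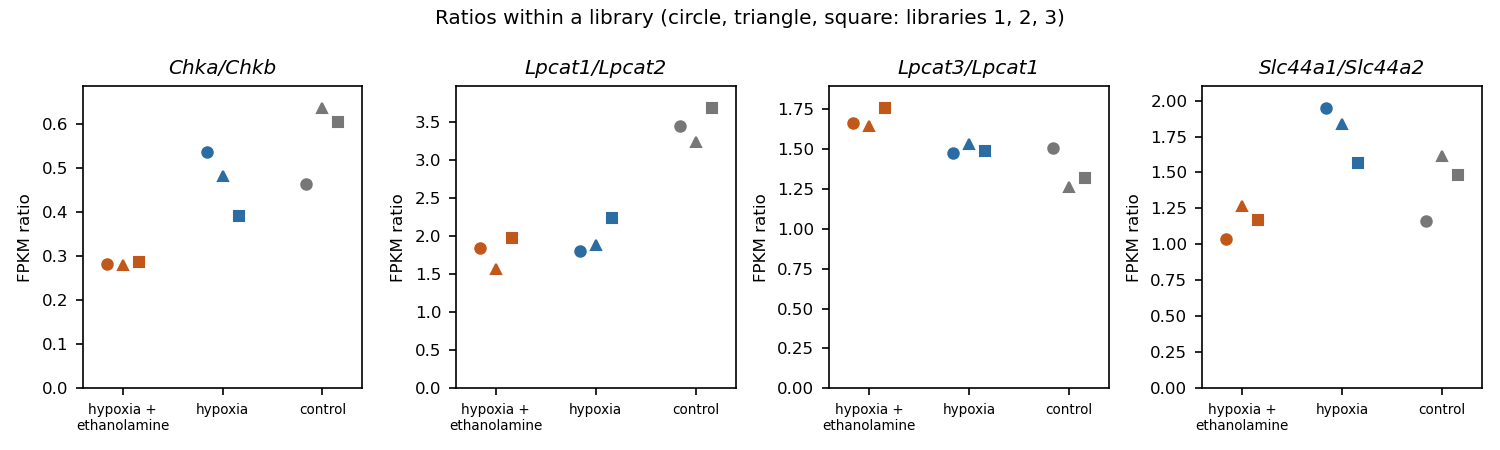
FPKM ratio of 2 genes within each library (vertical axes, each from 0) for hypoxia with ethanolamine, hypoxia and control, 1 point per library. The Chka to Chkb ratio is lowest with ethanolamine, at 0.280 to 0.287, and the Lpcat1 to Lpcat2 ratio is highest in control, at 3.23 to 3.68.

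Seen together, 0 of the 9 tested genes were called for ethanolamine in hypoxia against hypoxia, where limma called 67 of all tested genes (0.568%). That background was unstable, since leaving out any 1 library gave between 0 calls (without hypoxia library 3) and 38 (without control library 1), and the fit to the groups compared alone gave 6. At an unadjusted p under 0.05 the count was 5 of 9, against 14.7% of all tested genes. The libraries did not overlap for 5 genes, with Slc44a2 higher and Chka, Phospho1, Lpcat1 and Lpcat3 lower with ethanolamine, against 21.6% of all tested genes. Of all tested genes 0.119% were called higher and 0.449% lower. The median log2 change of the 9 was -0.23, against 0.01 over all tested genes, and the median absolute log2 change was 0.37, against 0.11. The genes were chosen with earlier results of these data known. Their counts and medians beside those of all tested genes are therefore descriptions and no test of the set, here and in the other comparisons. Of the 67 calls over all genes 20.9% were higher with ethanolamine, and of the 38 after rescaling without mitochondrial and ribosomal RNA-like transcripts 7.89% were. With 1 library left out that share was between 4.35% and 20.0% wherever at least 5 calls remained.

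For ethanolamine in hypoxia against control, 5 of 9 were called (55.6%), against 58.5% of all tested genes. Slc44a2, Phospho1 and Lpcat2 rose (24.1% of all tested genes did), and Chka and Lpcat1 fell (34.4% did). At an unadjusted p under 0.05 the count was again 5 of 9, against 62.6%. The libraries did not overlap for 6 of 9, 3 higher and 3 lower, against 64.5%. The median absolute log2 change was 0.39 for the 9 and 0.39 over all tested genes. For hypoxia against control, 2 of 9 were called (22.2%), Phospho1 and Lpcat2, which both rose, against 59.4% of all tested genes called, 24.7% higher and 34.7% lower. At an unadjusted p under 0.05 the count was 3 of 9, against 63.3%, and the libraries did not overlap for 3 of 9, against 65.0%. The median absolute log2 change was 0.19, against 0.41 over all tested genes. The comparisons share libraries, and a call in one and not in another is no test of a difference between them.

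**Figure D3:**
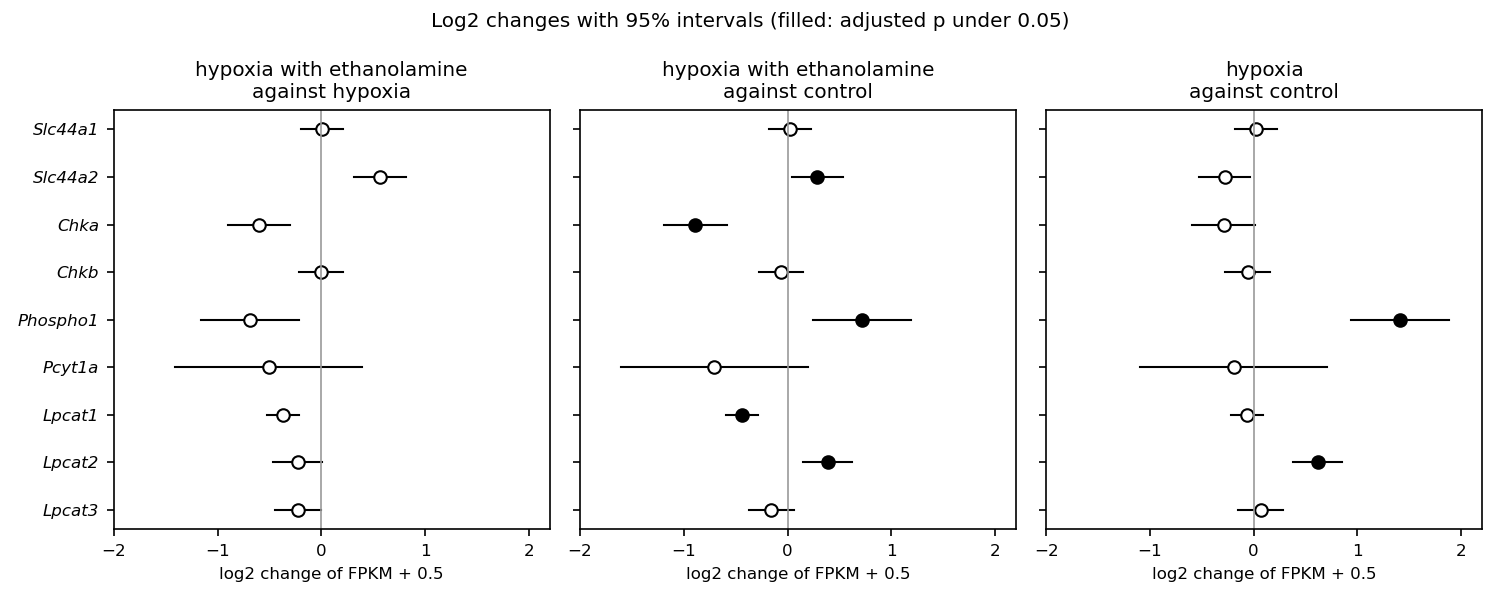
Log2 change of FPKM + 0.5 (horizontal axes) with its 95% interval for the 9 tested genes in the 3 comparisons, filled where the adjusted p is under 0.05. Phospho1 (1.41) and Lpcat2 (0.62) are filled for hypoxia against control, 5 genes are filled with ethanolamine against control, and none is filled with ethanolamine against hypoxia.

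The other genes of choline and phosphatidylcholine metabolism formed a list of 36, of which 22 were tested. For hypoxia against control 6 rose, 6 fell and 10 were not called (54.5% called), beside the 59.4% of all tested genes. The list of breakdown enzymes held 10 tested genes, of which 5 rose and 2 fell. Of all tested genes 24.7% were called higher and 34.7% lower. These lists too were chosen with earlier results known, and their counts are descriptions and no test of a list. Pld2, a phospholipase D that releases choline from phosphatidylcholine, averaged 8.62 ± 0.220 FPKM with ethanolamine in hypoxia, 10.3 ± 0.761 FPKM in hypoxia and 4.54 ± 0.180 FPKM in control. It rose in hypoxia by a log2 change of 1.09 (limma adjusted p = 1.54e-06). Pla2g4a, the cytosolic phospholipase A2 that releases arachidonate, averaged 16.7 ± 0.680 FPKM with ethanolamine in hypoxia, 16.2 ± 1.14 FPKM in hypoxia and 24.6 ± 1.74 FPKM in control. It fell in hypoxia by 0.59 (limma adjusted p = 0.000118).

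The phosphatidylcholine transfer genes went both ways in hypoxia. Stard7, whose product carries the lipid to mitochondria, averaged 9.29 ± 0.412 FPKM with ethanolamine in hypoxia, 9.88 ± 2.01 FPKM in hypoxia and 19.6 ± 1.54 FPKM in control, and it fell in hypoxia by 0.97 (limma adjusted p = 0.000218). Stard10 averaged 2.03 ± 0.335 FPKM with ethanolamine in hypoxia, 1.80 ± 0.314 FPKM in hypoxia and 0.900 ± 0.0628 FPKM in control, and it rose by 0.70 (limma adjusted p = 0.00214). Mboat1, a lysophospholipid acyltransferase, averaged 10.7 ± 0.234 FPKM with ethanolamine in hypoxia, 10.5 ± 0.646 FPKM in hypoxia and 17.0 ± 0.782 FPKM in control, and it fell by 0.67 (limma adjusted p = 1.96e-05). Pemt, the methyltransferase that makes phosphatidylcholine from phosphatidylethanolamine, averaged 1.63 ± 0.436 FPKM with ethanolamine in hypoxia, 1.43 ± 0.362 FPKM in hypoxia and 2.59 ± 0.409 FPKM in control, and it fell by 0.69 (limma adjusted p = 0.0147). That call was lost without control library 1 or hypoxia library 3 (adjusted p up to 0.0516).

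With ethanolamine in hypoxia against hypoxia, 0 of these 22 genes were called, beside 0.568% of all tested genes, and 4 of 22 had an unadjusted p under 0.05, beside 14.7%. Against control 6 rose and 8 fell (63.6% called), beside the 58.5% of all tested genes. Flvcr1, which encodes a choline transporter of the plasma membrane, averaged 8.98 ± 0.364 FPKM with ethanolamine in hypoxia, 7.93 ± 2.90 FPKM in hypoxia and 12.6 ± 4.72 FPKM in control and was not called in hypoxia (log2 change -0.64, limma adjusted p = 0.111). Pcyt1b, the second cytidylyl transferase gene, lay between 0.0484 and 0.181 FPKM, far below Pcyt1a in every library. Of the 14 untested genes, 7 were listed at 0 in all libraries, among them the high-affinity choline transporter gene Slc5a7.

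**Figure D4:**
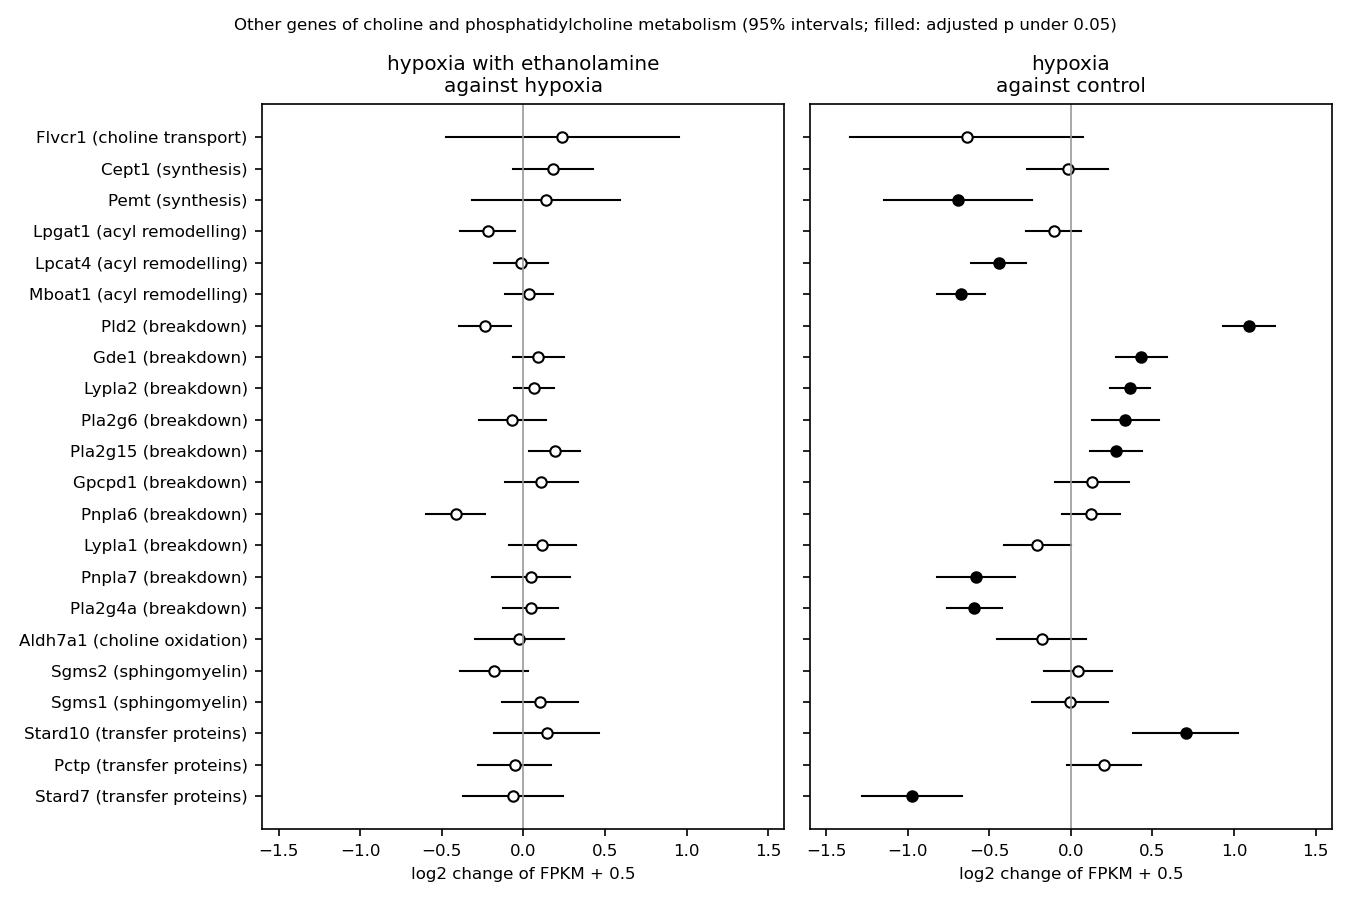
Log2 change of FPKM + 0.5 (horizontal axes) with its 95% interval for the 22 tested genes of the wider list, grouped by role, for hypoxia with ethanolamine against hypoxia and for hypoxia against control, filled where the adjusted p is under 0.05. Pld2 (1.09) and Stard7 (-0.97) lie farthest from 0 in hypoxia, and no point is filled with ethanolamine against hypoxia.

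The parallel ethanolamine branch shares its last step with choline through Cept1. Pcyt2, its cytidylyl transferase, averaged 11.8 ± 0.471 FPKM with ethanolamine in hypoxia, 14.9 ± 0.801 FPKM in hypoxia and 15.3 ± 2.46 FPKM in control. It fell with ethanolamine in hypoxia relative to control by 0.34 on the log2 scale (limma adjusted p = 0.0208). With ethanolamine in hypoxia against hypoxia its log2 change was -0.32, which was not called (limma adjusted p = 0.218). Selenoi, an ethanolamine phosphotransferase, averaged 2.45 ± 0.465 FPKM with ethanolamine in hypoxia, 2.39 ± 0.175 FPKM in hypoxia and 3.85 ± 0.421 FPKM in control, and it fell in hypoxia by 0.59 (limma adjusted p = 0.00353). Etnk1, the ethanolamine kinase, averaged 8.05 ± 0.328 FPKM with ethanolamine in hypoxia, 9.83 ± 0.963 FPKM in hypoxia and 8.09 ± 0.907 FPKM in control. It rose in hypoxia by a log2 change of 0.27 (limma adjusted p = 0.0377), and ethanolamine against hypoxia gave -0.27 (limma adjusted p = 0.250). The Etnk1 call was kept in 11 of 19 alternative settings and was lost without control library 1, hypoxia library 2 or 3, or ethanolamine library 2 or 3 (adjusted p up to 0.127 over all settings). It was also lost without a filter, after rescaling without mitochondrial and ribosomal RNA-like transcripts, and with only the groups compared. The Pcyt2 call was kept in 13 of 19 and was lost without control library 1 or 3, or ethanolamine library 2 or 3 (adjusted p up to 0.0700 over all settings). Median-of-ratios scaling and quantile normalization also lost it. The Selenoi call was kept in all 18 settings that tested it.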

How the data were processed

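RNA of 9 BV2 libraries, 3 per group, was sequenced. Sample titles gave the groups. For control cells a treatment tag names adipogenic differentiation, in conflict with title and design, and it was left aside. FPKM values, 1 column per library, are as the authors deposited them. Per the submitters' processing notes the build is GRCm38 (mm10). Aligner and quantifier are not given in the sources used. The other deposited table, of binned FPKM, was left out. FPKM depends on the library total and the gene length. Whole reads could not be recovered (0.777% to 1.41% of values under 0.3 FPKM shared the modal ratio between pairs of libraries), so depth is unknown and no counting interval is given. No library columns were identical (0 pairs).

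Testing used log2(FPKM + 0.5) and limma-trend for the 11802 genes averaging 1 FPKM or more, of 27339 above 0 in some library (limma 3.58.1, R 4.3.3; summaries in Python 3.11.15 and matplotlib 3.10.9). Group means were fitted over all 9 libraries without covariates, and p-values were two-sided and Benjamini-Hochberg adjusted over all tested genes. The code was tested on simulated data. Positions and overlaps came from GENCODE M21, which held 55154 of 55335 identifiers, and promoter windows from RefSeq GRCm38.p6 (27025 genes). Flvcr1 and Flvcr2 were matched by gene identifier. Named were all 10 members, the 6 largest called changes of the wider list in hypoxia against control, up to 4 called with ethanolamine against hypoxia (there were none), Cept1, Pemt, Pcyt1b and Flvcr1, the 3 nearest profiles of Phospho1 and Pcyt1a, and 3 ethanolamine branch genes. Lpcat4 was named in addition, as an acyltransferase gene outside the family sum. Members and lists were chosen with earlier results of these data known. Alternatives were other pseudocounts, filters and scalings, a replicate block, no trend, only the groups compared, and each library left out.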

Additional observations from a re-analysis of the deposited data

How the results depend on the processing

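Each member result was recomputed under 18 or 19 alternatives. Of 27 member results, 18 never changed direction and 13 kept both call and direction throughout. With a filter at a mean of 5 FPKM, which leaves out low members such as Lpcat2 and Chka, 1 member was called for hypoxia against control and 2 for ethanolamine in hypoxia against control. With median-of-ratios scaling, 1 member (Lpcat1) was called for ethanolamine in hypoxia against hypoxia, at an adjusted p of 0.0483. With each library left out in turn, the members called were 0 to 0 for ethanolamine against hypoxia, 4 to 5 for ethanolamine against control and 2 to 3 for hypoxia against control. Reversals concerned only uncalled values, most of them near 0. For Slc44a1, rescaling without mitochondrial and ribosomal RNA-like transcripts gave -0.023 with ethanolamine against hypoxia and -0.016 against control, and leaving out a library gave -0.043 to 0.086 and -0.017 to 0.078, and -0.061 to 0.073 for hypoxia against control. For Chkb, quantile normalization gave 0.0033 with ethanolamine against hypoxia, 0.079 with ethanolamine against control and 0.075 for hypoxia against control, median-of-ratios scaling gave 0.023 and 0.033 in these control comparisons, and leaving out a library gave -0.019 to 0.012, -0.17 to 0.020 and -0.17 to 0.024. For hypoxia against control, Lpcat1 was 0.025 with median-of-ratios scaling and 0.063 with quantile normalization, Pcyt1a ranged over -0.68 to 0.13 and Lpcat3 over -0.011 to 0.17 when a library was left out. The cause was not tested.

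Correlations between libraries did not settle whether replicate numbers in the titles pair them. Deviations of same-numbered libraries from their group means correlated at -0.117 to 0.109 (1 of 9 over 0.1), and those of other numbers at -0.163 to 0.163, so the libraries did not all correlate best with their own number. Among the ethanolamine libraries, each control library correlated best, but weakly, with that of its number (0.058, 0.06 and 0.029). Over both other groups, each control library correlated best with a hypoxia library. These were control 1 with hypoxia 3 (0.163), control 2 with hypoxia 2 (0.109) and control 3 with hypoxia 1 (0.033). Same-numbered hypoxia and ethanolamine libraries correlated at -0.117, -0.088 and -0.104. With the replicate block, 0 members were called for ethanolamine against hypoxia, 4 for ethanolamine against control and 2 for hypoxia against control, and Slc44a2 was not called. The block left 0 calls over all genes for ethanolamine against hypoxia, against 67. Unknown depth and 3 libraries per group limit the precision, and values near 0 such as those of Chpt1 could not be resolved.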
